A study of Mus musculus with 10 samples.

Results

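The expression of 10 genes of the response to oxidative and metal stress was followed in subcutaneous islet grafts and in subcutaneous biopsies of mice that received no graft. The 10 were taken by name: the metallothioneins Mt1 and Mt2, the heme oxygenase gene Hmox1, the cystine transporter gene Slc7a11, and Srxn1, Gclc, Gclm, Nqo1, Txnrd1 and Sod2. They are 10 of the 18193 genes that the array measures with at least 1 probe set of a single gene symbol, and 22 such probe sets read them. The graft recipients and the Diabetic mouse were 6-week-old male Swiss nu/nu mice, which lack T cells, made diabetic with streptozotocin, whereas the Control mouse was not diabetic. A graft consisted of Wistar rat islets in a scaffold of rat plasma, set under the skin either without further cells (PSI) or with cultured nu/nu mouse skin fibroblasts (PSI-F). Grafts were taken on days 1, 3, 7 and 10, and the Control and Diabetic biopsies belong to day 0. Each of these 10 conditions was hybridized to 1 array, so no condition has a replicate and no spread within a condition is known.

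Cells meet oxidants and excess metal with a shared set of genes. Keap1 holds the transcription factor Nrf2 (gene Nfe2l2) in check until oxidants or electrophiles modify it. Nrf2 then pairs with small Maf proteins on antioxidant response elements and switches on genes of glutathione, thioredoxin and heme metabolism, while Bach1 occupies many of the same elements and is released by heme. Metallothioneins are small cysteine-rich proteins that bind zinc and copper, and their genes answer to the metal sensor MTF1, to glucocorticoids and to inflammatory cytokines. Isolated islets have low antioxidant enzyme activity and are left without blood flow until vessels grow into the graft.

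Levels are the authors' log2 expression values, on which a difference of 1 is a 2-fold difference. The array medians lay between 2.82 and 2.94, and a level near or below them is close to background. Because the arrays hold mouse probes, a rat islet transcript is seen only where it binds them. The grafts carried islet endocrine markers at a summed level (log2 of the sum of linear levels of 8 genes) of 7.96 to 10.68, against 5.21 and 5.54 in the biopsies. Of those 8 markers, Gcg, Pcsk1 and Slc2a2 lay below the array median on all arrays. Skeletal muscle markers were bright on every array, with summed levels of 14.78 to 15.52. In such bulk tissue, fewer cells of a type and less RNA per cell cannot be told apart.

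By the brighter of the Mt1 probe sets, Mt1 and Mt2 had nearly the same course, with their highest levels in the grafts of day 1 and low levels from day 7 on. Sequence around their transcript starts is shown because the pair moved together and metal response elements are known control elements of both genes. The stretches are RefSeq sequence of build GRCm38.p6, plus strand of chromosome 8, and capitals mark the core letters of the metal response element, searched on both strands as TGCACNC and TGCGCNC. Positions count from 0 at the first base of the RefSeq transcript start of the table.
Mt2, chr8:94172368-94172617, all 250 bases before the start: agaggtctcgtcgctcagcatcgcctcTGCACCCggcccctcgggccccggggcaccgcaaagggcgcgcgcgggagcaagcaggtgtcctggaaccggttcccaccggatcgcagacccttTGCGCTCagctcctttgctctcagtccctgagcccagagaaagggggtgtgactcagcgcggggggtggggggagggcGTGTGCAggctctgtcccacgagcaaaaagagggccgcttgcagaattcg
Mt1, chr8:94179055-94179084, positions -34 to -5: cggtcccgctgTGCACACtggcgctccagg
Mt1, chr8:94179088-94179117, positions -1 to 28: ctcTGCACTCcgcccgaaaagTGCGCTCgg
In the window from 250 bases before to 50 bases after the start, Mt2 holds 4 such cores, the last of them at position 4, and Mt1 holds 3, at positions -23, 2 and 20. Of 32851 RefSeq windows of that length, 25.7% hold at least 1 core of either form (12.6% hold TGCACNC and 15.4% hold TGCGCNC), and 1.97% hold at least 3. Gclm also holds 3, all of the form TGCGCNC. These are matches of letters only and no binding was measured.

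Mt1 levels were 11.67 on PSI day 1 and 11.74 on PSI-F day 1, 10.40 on PSI day 3 and 10.78 on PSI-F day 3, 8.86 on PSI day 7 and 8.65 on PSI-F day 7, and 8.92 on PSI day 10 and 9.19 on PSI-F day 10. The Control biopsy held 8.25 and the Diabetic biopsy 10.71. Every graft of days 1 and 3 was thus above every graft of days 7 and 10, the Control array was the lowest of all, and the Diabetic array lay among the day 3 grafts. Mt2 levels were 11.35 and 11.54 on day 1, 10.65 and 11.04 on day 3, 9.20 and 8.89 on day 7, and 9.57 and 9.44 on day 10, PSI before PSI-F, beside 9.02 in Control and 10.50 in Diabetic. The 2 genes placed the arrays in almost the same order, and the PSI and PSI-F arrays sat next to each other on days 1 and 10 for both.

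Both metallothionein genes fell from the early to the late grafts. In limma over the 4 grafts of days 7 and 10 against the 4 of days 1 and 3, Mt1 had a mean of 8.90 late and 11.15 early, a difference of -2.24 on the log2 scale (SE 0.29, 95% interval -2.89 to -1.60, adjusted p = 0.0172), or 4.74-fold. The mean of Mt2 was 9.28 late and 11.14 early, and the difference was -1.87 (SE 0.21, interval -2.34 to -1.40, adjusted p = 0.0103), or 3.65-fold. They were the only 2 of the 10 genes called in this comparison, both lower, and no gene of the 10 was called higher. Over all 18193 genes, 0.687% were called lower and 0.176% higher. The PSI and PSI-F arrays of a day entered this fit as separate replicates, and the SE and p-values do not allow for what they share. A second, dimmer probe set of Mt1, between 3.13 and 5.06, gave a difference of -1.05 (SE 0.25) with a limma adjusted p of 0.0866. It was highest on PSI-F day 3 at 5.06, with 4.97 in PSI and 4.89 in PSI-F on day 1. Its day 10 levels, 4.03 in PSI and 4.08 in PSI-F, lay just under the 4.10 of PSI day 3. Without the PSI day 1 array the limma adjusted p was 0.0641 for Mt1 and 0.0502 for Mt2, and without PSI day 7 or PSI day 10 it was 0.052 or 0.056 for Mt1, while Mt2 stayed under the threshold in both.

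Other features of the arrays differ between the same early and late grafts. Neutrophil markers had a summed level over 9 genes of 9.96 to 11.65 on the early grafts and 7.79 to 8.90 on the late ones, with no overlap, and Cxcr2, Ngp and Camp among them stayed below the array median throughout. In the biopsies the neutrophil sum was 7.76 in Diabetic and 8.84 in Control, and single markers went both ways. S100a8 had 6.67 in Diabetic and 7.95 in Control, and Csf3r had 4.38 and 3.37. Spiked-in bacterial poly-A controls were brighter on all 4 late arrays than on any of the other 6 for 12 of 27 probe sets, for example 6.06 to 6.76 against 3.81 to 4.40 for DapX-5. A difference in how the late arrays were handled cannot be told apart from the time after transplantation. In these 12 probe sets the controls on both biopsies were also dimmer than on any late array. Mt1 was at 8.25 in Control and 10.71 in Diabetic, and Mt2 at 9.02 and 10.50. The biopsies are not grafts and cannot separate handling from time. The part of neutrophil RNA in the fall was not tested.

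Between the 2 biopsies Mt1 differed more than any other gene of the 10. It was 2.46 higher on the log2 scale in Diabetic than in Control (5.5-fold), the only one of the 10 past 4-fold, where 1.3% of all genes were. Mt2 was 1.48 higher. Hmox1 was lower in Diabetic by 0.91 and Srxn1 by 0.53 (differences of -0.91 and -0.53), and the other 6 differed by at most 0.24. These are differences of 1 array from 1 array, with no test.

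**Figure D1:**
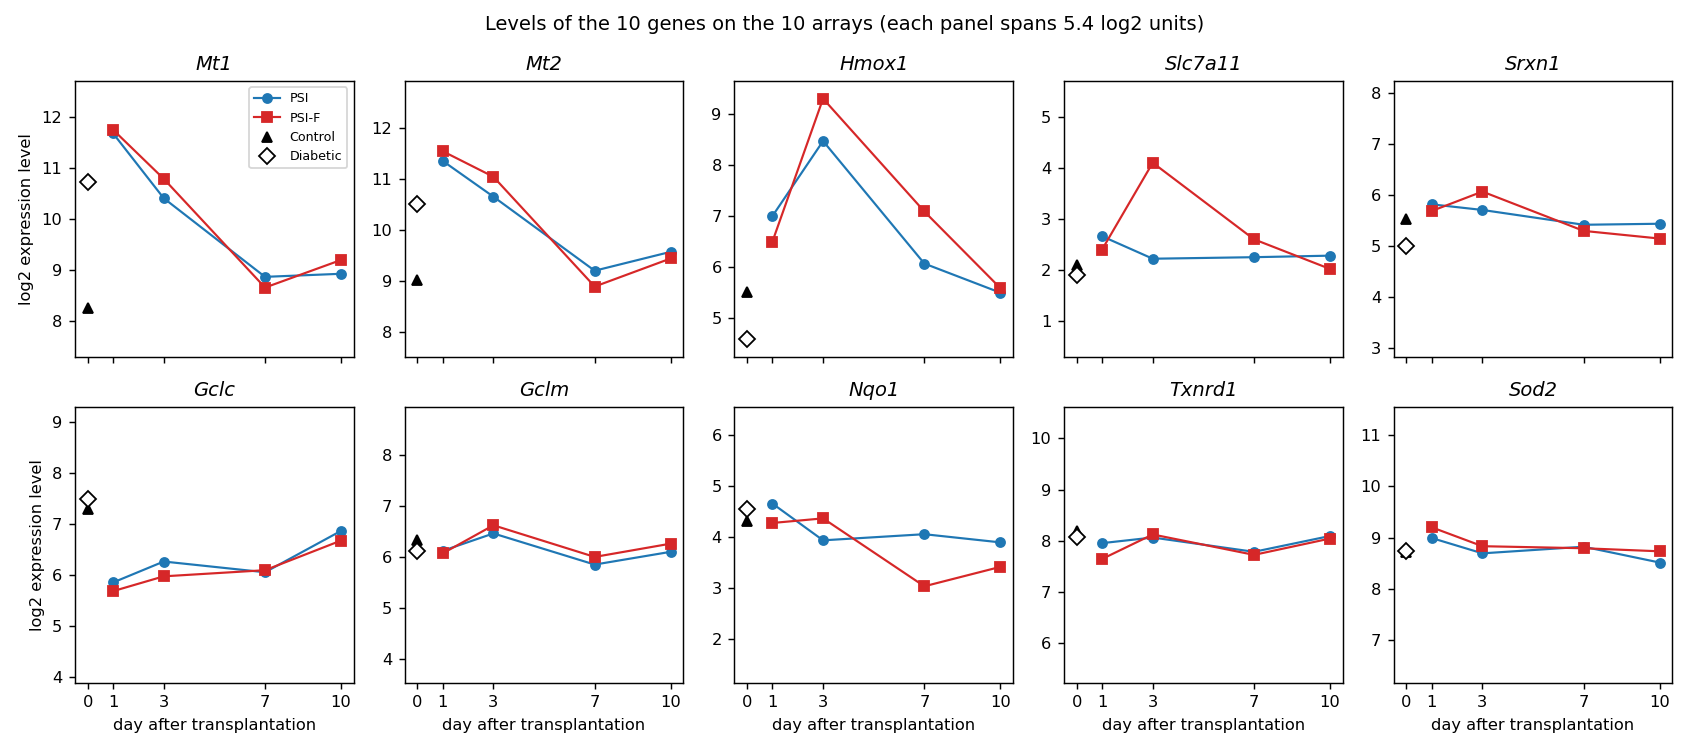
Log2 expression level (vertical axis) of the 10 genes by day after transplantation (horizontal axis), 1 panel per gene, each spanning the same number of log2 units but starting at a different level. Blue circles are PSI grafts, red squares PSI-F grafts, black triangles the Control biopsy and open diamonds the Diabetic biopsy, and each symbol is 1 array. By the brightest probe set of each gene, as drawn, Mt1 and Mt2 are highest on day 1 and low from day 7 on. Hmox1 is highest on day 3, and Gclc is below both biopsies in every graft.

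Hmox1, the inducible enzyme that breaks heme down to biliverdin, iron and carbon monoxide, had its highest levels on day 3. Its level was 7.00 on PSI day 1 and 6.50 on PSI-F day 1, 8.47 on PSI day 3 and 9.30 on PSI-F day 3, 6.07 on PSI day 7 and 7.09 on PSI-F day 7, and 5.50 on PSI day 10 and 5.59 on PSI-F day 10. Control was at 5.51 and Diabetic, the lowest array, at 4.59. The grafts of day 10 were near the Control level and above Diabetic by 0.91 in PSI and 0.99 in PSI-F. All grafts of days 1, 3 and 7 were above both biopsies. Its span over the 10 arrays, 4.71, was the widest of the 10 genes, ahead of Mt1 with 3.49 and Mt2 with 2.64.

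Neither limma comparison called Hmox1. The 8 grafts had a mean of 6.94 and the 2 biopsies 5.05, a difference of 1.89 (SE 0.87, interval -0.02 to 3.80, adjusted p = 0.287). Late grafts had a mean of 6.06 and early ones 7.82, a difference of -1.76 (SE 0.59, interval -3.09 to -0.42, adjusted p = 0.198). A peak on day 3 puts the spread between days 1 and 3 into the error of both fits.

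Macrophages, which take up red cells and express Hmox1, are one cell type whose markers were higher in the grafts when summed. Their summed level over 10 genes was 9.29 and 9.32 in the biopsies and 11.47 to 12.73 in the grafts, highest on PSI-F day 3 like Hmox1. On day 10 the macrophage sum was 11.67 in PSI and 11.47 in PSI-F, and Hmox1 was at 5.50 and 5.59. The sum is set mostly by the brightest markers, and single markers differed in course. Cd68 had 7.97 and 8.23 on day 3 and 6.55 and 6.59 on day 10, PSI before PSI-F. C1qa had 8.43 and 8.60 on day 3 and 8.43 and 8.14 on day 10. Erythroid markers summed to 5.0 and 5.95 in the biopsies and to 4.57 to 8.87 in the grafts, highest on PSI-F day 7, with Hba-a1 and Epb42 below the array median on all arrays. The part of either cell type in the Hmox1 levels was not tested.

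**Figure D2:**
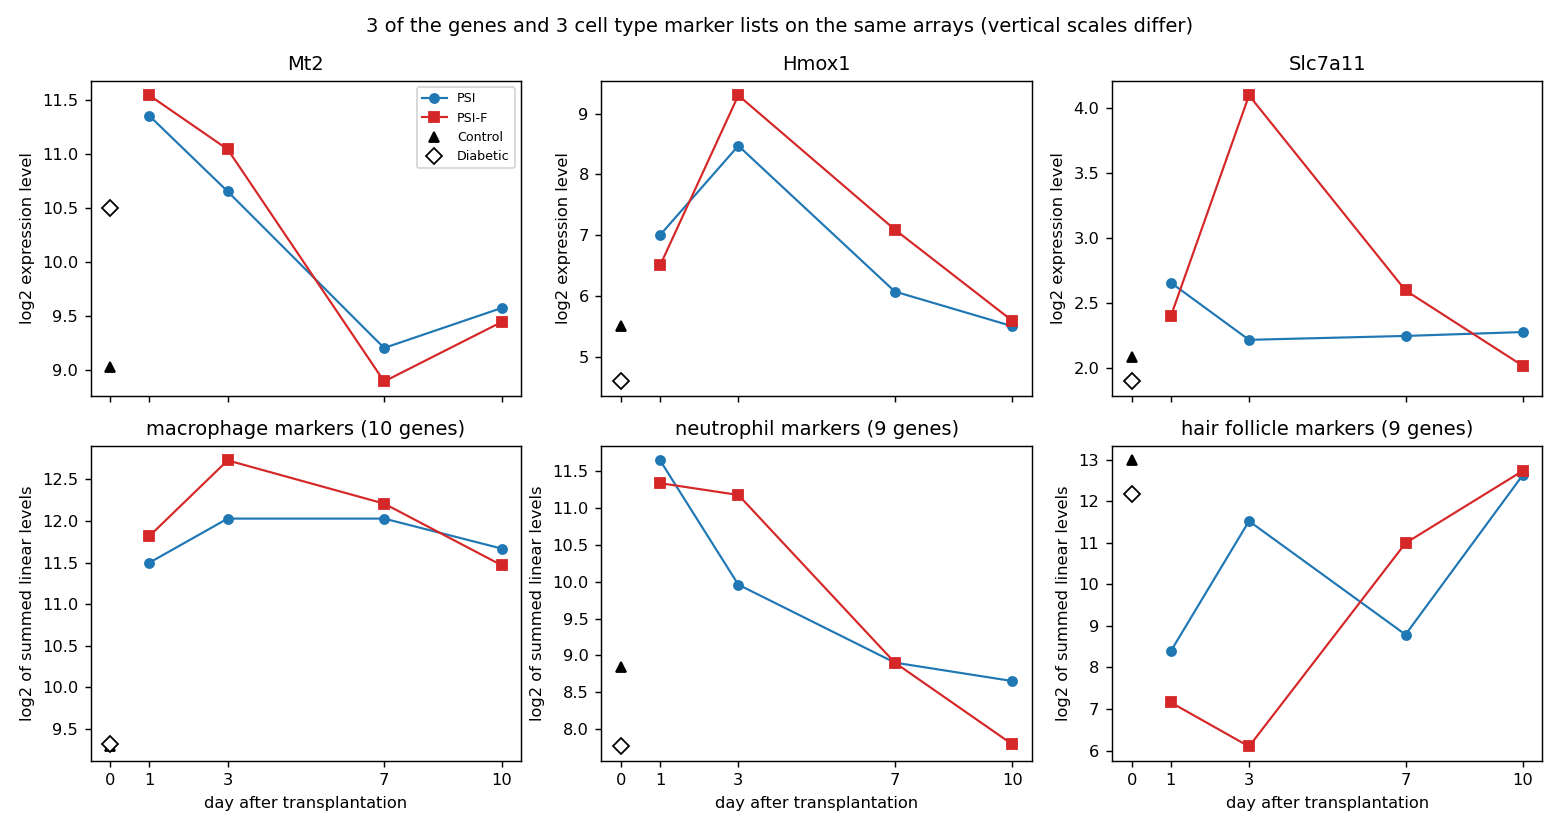
Upper row: log2 expression level of Mt2, Hmox1 and Slc7a11 by day after transplantation. Lower row: log2 of the summed linear levels of the macrophage, neutrophil and hair follicle marker lists on the same arrays, with the number of genes in each panel title. Symbols are single arrays of PSI (blue circles), PSI-F (red squares), Control (triangle) and Diabetic (diamond), and the vertical scales differ. The macrophage sum lies at 11.47 or higher in all grafts including those of day 10. The hair follicle sum differs most between PSI and PSI-F on day 3.

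Slc7a11, the transporter subunit that imports cystine for glutathione synthesis, was near background on all arrays but 1. It stood at 4.10 on PSI-F day 3 and between 1.90 (Diabetic) and 2.66 (PSI day 1) on the other 9, all below the array medians. Its second probe set had 2.40 on PSI-F day 3 and at most 1.76 elsewhere, all below the array medians, so the high level rests on 1 probe set and 1 array. No limma comparison called it, with -0.56 (adjusted p = 0.498) for late minus early and 0.57 (adjusted p = 0.543) for grafts minus biopsies. The PSI-F day 3 array also stood apart in marker sums, with the highest macrophage level (12.73) and the lowest hair follicle (6.10) and skeletal muscle (14.78) levels of all arrays. Its neutrophil sum was 11.18, against 9.96 on PSI day 3 and 11.65 and 11.34 on the day 1 arrays. The part of these cell types in the Slc7a11 level was not tested.

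The RefSeq window of Slc7a11 carries a pair of sites that the windows of the other members lack. The letters TTGCATCA, an ATF4-type composite site, occur in 0.895% of all windows on either strand, and in Slc7a11 they occur at positions -66, on the reverse strand, and -47. The 2 stretches, on the minus strand of chromosome 3, overlap each other and are shown with these letters in capitals.
Slc7a11, chr3:50443661-50443690, positions -77 to -48: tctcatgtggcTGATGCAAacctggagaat
Slc7a11, chr3:50443642-50443671, positions -58 to -29: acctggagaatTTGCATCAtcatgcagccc
Letters of a site to which Nrf2 or Bach1 with a small Maf protein binds, TGANTCAGC, occur in 1.19% of windows and in 2 of the 8 members that have a window, Srxn1 and Mt2. Both are shown on the plus strand with the site in capitals.
Srxn1, chr2:152105468-152105497, positions -56 to -27: caaattcacccTGAGTCAGCggccgggcgc
Mt2, chr8:94172528-94172557, positions -90 to -61: gaaagggggtgTGACTCAGCgcggggggtg
The looser antioxidant response core TGACNNNGC occurs in 12.4% of windows. It was found in Mt2, where it is the same 9 letters as above, in Srxn1 at position 28, in Gclm at position -134 and in 1 of 3 windows of Txnrd1. None of these letters occurs in the windows of Nqo1 and Sod2, and Gclc and Hmox1 have no window in the table.

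Srxn1, the sulfiredoxin that restores overoxidized peroxiredoxins, was read by 4 probe sets that disagree. By the brightest, the level was 5.82 and 5.69 on day 1, 5.71 and 6.07 on day 3, 5.42 and 5.30 on day 7, and 5.44 and 5.15 on day 10, PSI before PSI-F, with 5.53 in Control and 5.0 in Diabetic. All 4 early grafts were above all 4 late ones, but the limma difference of -0.50 (SE 0.12) had an adjusted p of 0.0852. Another probe set had 6.13 and 6.38 on day 1 and 3.99 to 5.08 on the other 8 arrays, and the third had 4.95 and 5.41 on day 1 and 3.52 to 4.44 elsewhere. Their late minus early differences were -1.27 (SE 0.32, limma adjusted p = 0.101) and -0.91 (SE 0.25, limma adjusted p = 0.123). The fourth ranged from 3.51 to 4.53 and was highest on PSI-F day 7, so day 1 stands out in 2 of the 4 probe sets and the size of the change depends on the one used.

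**Figure D3:**
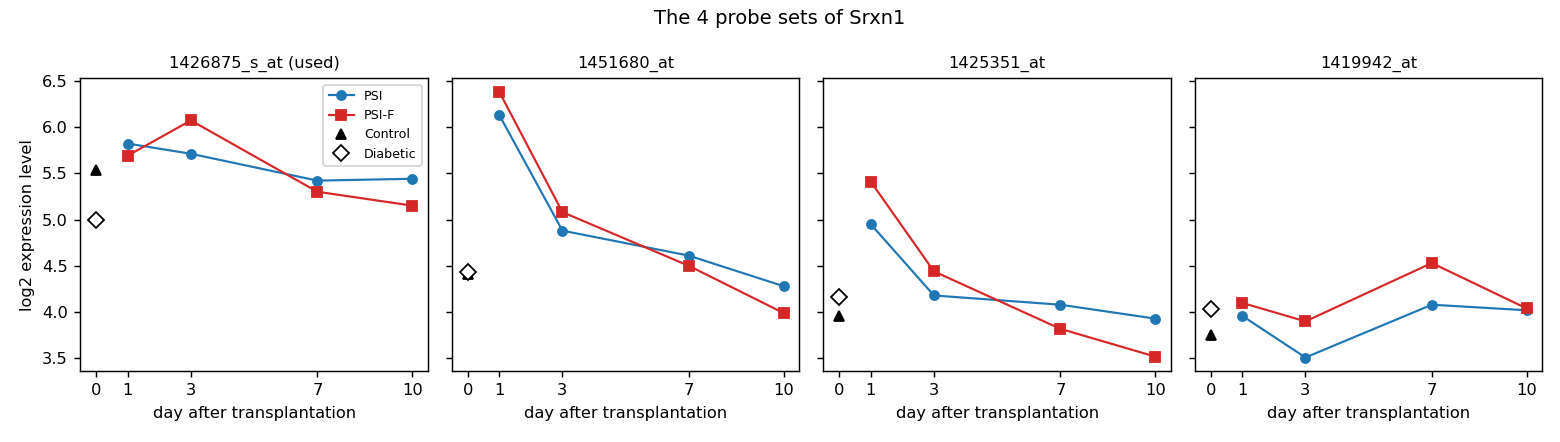
Log2 expression level of the 4 Srxn1 probe sets by day after transplantation, 1 panel per probe set on a shared vertical axis, with the probe set of highest mean marked as used. Each symbol is 1 array of PSI, PSI-F, Control or Diabetic. In 2 probe sets the arrays of day 1 stand above all others, while the one used has its highest level of 6.07 on PSI-F day 3.

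Gclc was the only gene of the 10 called between grafts and biopsies, and it was lower in the grafts. It codes for the catalytic subunit of glutamate-cysteine ligase, the rate-limiting enzyme of glutathione synthesis. Control and Diabetic had 7.29 and 7.49, and the grafts had 5.85 and 5.68 on day 1, 6.26 and 5.97 on day 3, 6.05 and 6.09 on day 7, and 6.86 and 6.67 on day 10, PSI before PSI-F. Every graft was below both biopsies, and those of day 10 came closest. The limma difference was -1.21 (SE 0.27, interval -1.80 to -0.62, adjusted p = 0.044), or 2.31-fold. Over all genes, 0.693% were called lower and 2.16% higher.

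The call of Gclc is near the threshold and was lost when any 1 of 8 of the 10 arrays was left out. The limma adjusted p then lay between 0.0522 (without Control) and 0.259 (without Diabetic), with differences of -1.31 and -1.11, and it passed only without PSI day 10 (0.0204) or PSI-F day 10 (0.0334). The second Gclc probe set had 7.18 and 7.43 in the biopsies and 4.83 to 7.38 in the grafts, where the highest, PSI-F day 10, lay between the biopsies, and its limma difference was -1.32 (SE 0.53, adjusted p = 0.217). Against the grafts of days 1 and 3 alone the difference was -1.45 (limma adjusted p = 0.0149), and against those of days 7 and 10 alone it was -0.97 (limma adjusted p = 0.174). Hair follicle markers, summed over 9 genes, had 12.18 and 12.98 in the biopsies, 6.10 to 11.52 in the grafts of days 1 to 7 and 12.63 and 12.73 on day 10. Within a day their course was not that of Gclc. On day 3 the sum was 11.52 in PSI and 6.10 in PSI-F, beside Gclc at 6.26 and 5.97. On day 7 the sum was 8.79 and 10.99, beside Gclc at 6.05 and 6.09. The part of hair follicle cells in the Gclc result was not tested.

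The partner subunit did not share this pattern. Gclm, the modifier subunit that raises the efficiency of Gclc, ranged only from 5.85 (PSI day 7) to 6.62 (PSI-F day 3), with 6.33 and 6.12 in the biopsies. Its limma difference between grafts and biopsies was -0.04 (interval -0.45 to 0.36, adjusted p = 0.94). A second Gclm probe set, from 4.30 to 5.47, had a limma difference of -0.60 (SE 0.26, adjusted p = 0.258).

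Nqo1, Txnrd1 and Sod2 were called in no comparison. Nqo1, a quinone reductase often used as a readout of Nrf2, was dim throughout, from 4.65 on PSI day 1 down to 3.03 on PSI-F day 7, the latter close to the array median. Its late minus early difference was -0.71 (SE 0.23, limma adjusted p = 0.184), with 3.03 to 4.05 on the late and 3.93 to 4.65 on the early grafts, which overlap. Txnrd1, the cytosolic thioredoxin reductase, stayed within 7.64 (PSI-F day 1) and 8.19 (Control), the narrowest span of the 10 at 0.55. Sod2, the mitochondrial manganese superoxide dismutase, stayed within 8.51 (PSI day 10) and 9.20 (PSI-F day 1), and its second brightest probe set was also highest on PSI-F day 1, at 8.92. The limma intervals for grafts minus biopsies were -0.53 to 0.11 for Txnrd1 and -0.24 to 0.43 for Sod2, and for late minus early -0.34 to 0.27 and -0.50 to 0.08.

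Over the 10 genes, the median difference was 0.20 for grafts minus biopsies and -0.53 for late minus early grafts, beside -0.02 and 0.01 over all genes. In late minus early grafts Mt1, Mt2, Hmox1, Nqo1, Slc7a11 and Srxn1 had differences from -2.24 to -0.50, and of these only Mt1 and Mt2 were called. The difference of Slc7a11, a gene near background, was -0.56, and without PSI-F day 3 it was -0.14. Gclm, Sod2 and Txnrd1 had -0.27, -0.21 and -0.04, while Gclc had 0.47 (limma adjusted p = 0.301).

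**Figure D4:**
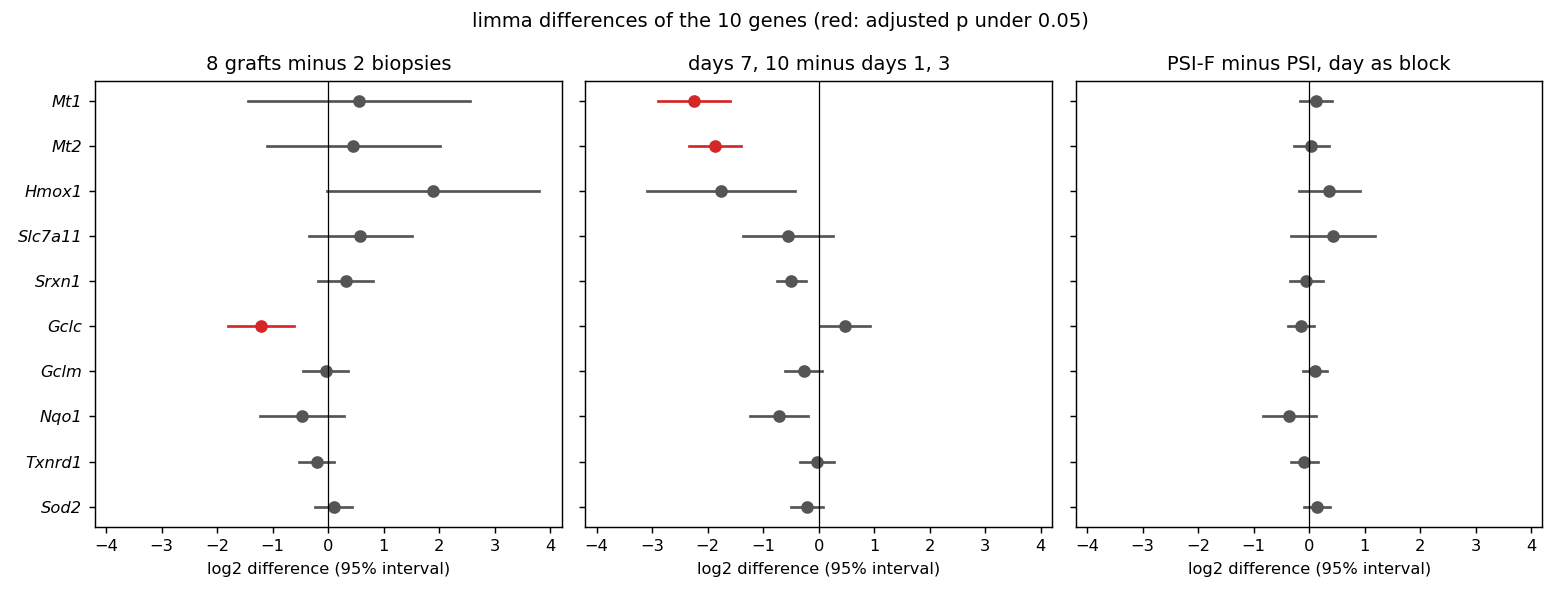
limma differences on the log2 scale (horizontal axis) with their 95% intervals for the 10 genes (rows) in grafts minus biopsies, late minus early grafts and PSI-F minus PSI. Points are the estimates, bars the intervals, and red marks an adjusted p under 0.05. Red are Gclc at -1.21 on the left and Mt1 and Mt2 at -2.24 and -1.87 in the middle, and nothing on the right.

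The fibroblasts were the treatment of the study, and on each day 1 PSI-F array can be set against 1 PSI array. No gene of the 10 reached 4-fold on any day, where 0.187% of all genes did on day 1, 0.726% on day 3, 0.335% on day 7 and 0.115% on day 10. At 2-fold, none passed on day 1 or day 10, 1 on day 3 and 2 on day 7, beside 1.13%, 2.86%, 1.78% and 0.731% of all genes on days 1, 3, 7 and 10. The one of day 3 was Slc7a11, with 4.10 in PSI-F and 2.22 in PSI. The PSI level is below the array medians, so the size of this difference cannot be read. Those of day 7 were Hmox1, 7.09 against 6.07 (1.02), and Nqo1, 3.03 against 4.05 (-1.03). The PSI-F level of Nqo1 is close to the array medians, so the size of its difference is uncertain. Hmox1 had -0.50 on day 1, 0.83 on day 3 and 0.09 on day 10, so its sign was not the same on all days. The median over the 10 genes was -0.15, 0.37, -0.04 and -0.09 on the 4 days.

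With the day as a block, limma called none of the 10 between PSI-F and PSI, as 0.0% of all genes were called. The smallest adjusted p over all genes was 0.751, and 1142 of 18193 genes had an unadjusted p under 0.05, none of the 10 among them. The difference for Mt1 was 0.13 (interval -0.16 to 0.41) and for Mt2 0.04 (interval -0.27 to 0.35), so the intervals exclude a 2-fold difference shared by the days. For Hmox1 it was 0.36 (interval -0.19 to 0.91), for Slc7a11 0.43 (interval -0.33 to 1.18) and for Nqo1 -0.36 (interval -0.84 to 0.12). The other 5 had differences of -0.15 to 0.14.

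Whether the change with time differed between the 2 kinds of graft was tested in limma by the late minus early change in PSI-F minus that in PSI. None of the 10 was called, as 0.0% of all genes were, and 249 of all genes had an unadjusted p under 0.05. It was -0.20 for Mt1 (interval -1.70 to 1.31), -0.51 for Mt2 (interval -1.53 to 0.51), 0.39 for Hmox1 (interval -2.68 to 3.47) and -0.78 for Nqo1 (interval -1.60 to 0.05). These intervals are wide, and a fall of Mt1 or Hmox1 that is 2-fold larger in one kind of graft lies inside them.

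**Figure D5:**
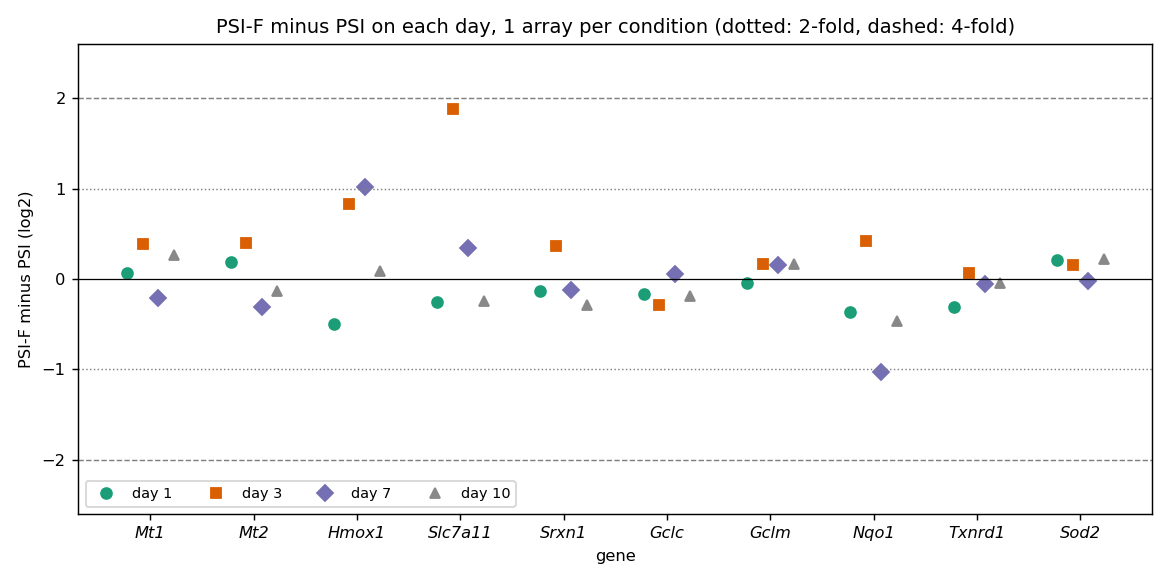
Log2 difference of PSI-F from PSI (vertical axis) for the 10 genes (horizontal axis), with 1 symbol per day, each the difference of 1 array from 1 array. Dotted lines mark 2-fold and dashed lines 4-fold. Slc7a11 on day 3 (where the PSI level is below the array medians), Hmox1 on day 7 at 1.02 and Nqo1 on day 7 at -1.03 (where the PSI-F level is close to the array medians) are past the dotted lines. None is past the dashed ones.

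Each graft was also set against the Diabetic biopsy, which came from another diabetic mouse that received no graft. All 8 comparisons share that 1 array, and none has a test. On day 1, Hmox1 was past 4-fold in PSI (2.41 on the log2 scale) and no gene of the 10 was in PSI-F, beside 2.79% and 3.3% of all genes. On day 3, Hmox1 was past it in PSI with 3.88 and in PSI-F with 4.71, beside 2.33% and 4.23% of all genes. Slc7a11 also passed by its values on PSI-F day 3, 4.10 against 1.90, but the Diabetic level is below the array medians and the size of the difference cannot be read. On day 7 none was in PSI, while in PSI-F Hmox1 was higher by 2.50 and Mt1 lower (-2.06), beside 3.01% and 2.98%. On day 10 none was past it in either, beside 1.67% and 1.53%.

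The choice of biopsy matters for the metallothioneins, since Diabetic was high and Control low for both. Against Control, Mt1 was higher by 3.43 in PSI and 3.49 in PSI-F on day 1, and it was also past 4-fold in both grafts of day 3. Against Diabetic the largest of these 4 differences was 1.03, on PSI-F day 1, and the 4 grafts of days 7 and 10 were below Diabetic for both genes. For Hmox1 the order of the biopsies is the other way around, and its level on PSI-F day 7 was 1.59 above Control.

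Beyond the 10 genes, 78 other genes of these pathways were measured, of 86 listed. In limma 5 of the 78 were higher in grafts than in biopsies and none lower, where 2.16% of all genes were called higher and 0.693% lower, with a median difference of 0.06 beside -0.02 over all genes. Of 6 superoxide and peroxide enzymes 3 were called higher, all subunits of the phagocyte NADPH oxidase, which makes superoxide: Cybb (difference 3.23, SE 0.34, adjusted p = 0.00317), Cyba (2.76, SE 0.33, adjusted p = 0.0048) and Ncf1 (2.73, SE 0.46, adjusted p = 0.0169). Slc11a1, a metal ion transporter of the phagosome in macrophages and neutrophils, rose by 3.50 (SE 0.43, adjusted p = 0.00535) and was the 1 call among 12 heme and iron genes. Cp, the copper-carrying ferroxidase ceruloplasmin, was the 1 call among 7 metal handling genes (1.01, SE 0.22, adjusted p = 0.0432). The summed macrophage markers were higher in all grafts, as given above, and the part of macrophages in these 5 calls was not tested.

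Genes nearer to the 10 in function did not pass. No call was made in grafts minus biopsies among 7 regulators of the response, which include Nfe2l2 (0.48, limma adjusted p = 0.211), Keap1 (-0.10, limma adjusted p = 0.849) and Bach1 (-0.49, limma adjusted p = 0.399). Likewise none of 19 glutathione enzymes, 9 thioredoxin and peroxiredoxin genes, 5 NADPH-forming enzymes or 13 other Nrf2-linked genes was called. Their median differences were -0.15, 0.18, 0.03, 0.03 and -0.11 in that order. Single genes differed by more without a call. Among the regulators the largest difference was that of Maff (-1.90, limma adjusted p = 0.071). Among the glutathione enzymes Chac1 had -2.45 (limma adjusted p = 0.124) and Gpx7 1.67 (limma adjusted p = 0.0652).

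From early to late grafts 2 of the 78 fell and none rose, where 0.687% of all genes were called lower and 0.176% higher, with a median difference of -0.16 beside 0.01 over all genes. They were Slc39a14, a zinc and iron importer induced by inflammation (-1.02, SE 0.18, limma adjusted p = 0.0414), and Slc11a1 (-1.10, SE 0.21, limma adjusted p = 0.0492). The summed neutrophil markers, 9.96 to 11.65 early and 7.79 to 8.90 late, were also lower on the late grafts, and their part in these 2 calls was not tested. Slc39a14 had 7.00 to 7.85 on the early and 6.03 to 6.38 on the late grafts, with 6.06 in Control and 7.78 in Diabetic. Like Mt1 and Mt2, it was thus low in Control and high in Diabetic.

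No other pathway gene was called between PSI-F and PSI. The 2 largest differences toward lower levels in PSI-F were those of Mt4, -1.82 (SE 0.99), and Slc39a10, -1.14 (SE 0.31), and the 2 largest toward higher levels were those of Gpx2, 0.65 (SE 0.24), and Ncf1, 0.41 (SE 0.14), each with a limma adjusted p of 0.751. On day 3 alone the remaining metallothionein genes were past 4-fold: Mt4, the metallothionein of stratified epithelium, had 8.11 in PSI and 1.69 in PSI-F, and Mt3 had 5.64 and 3.62 (-2.02). The PSI-F level of Mt4 is below the array medians, so the size of its difference cannot be read, and the same array enters its limma value. Mt1 and Mt2 had 0.39 and 0.40 on that day. Hair follicle markers summed to 11.52 in PSI day 3 and 6.10 in PSI-F day 3, whereas epidermis markers summed to 13.41 and 13.95. The part of either cell type in the Mt3 and Mt4 values was not tested.

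The genes whose courses were most like those of the members were sought among 2572 genes with an SD of at least 0.5 over the 10 arrays, for the 4 members spanning at least 2 log2 units. Pearson r is a description here, over 10 arrays that share the days and the tissue. For Mt1 the closest was Mt2 (r = 0.982), followed by Ripor2 (0.96) and Ankrd10 (0.951), and for Mt2 they were Mt1, Ripor2 (0.944) and Rras2 (0.94). Ripor2 was dim, from 2.65 to 4.65. For Hmox1 they were Ltc4s (0.985), the leukotriene C4 synthase gene, which had 5.72 and 6.35 on day 3 and 3.72 to 4.76 elsewhere, and then Pgap6 and Susd3 (0.963 each). For Slc7a11 they were Trem1 (0.901), a receptor of neutrophils and monocytes, Reg1 (0.894) and Treml4 (0.889). Each of these 3 was highest on PSI-F day 3, at 6.23, 4.80 and 3.55, the 1 array that sets the course of Slc7a11.

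Among the 10 genes themselves, the pairs with the highest r over the 10 arrays after Mt1 and Mt2 were Hmox1 with Srxn1 (0.805) and Hmox1 with Slc7a11 (0.786). The first uses the brightest Srxn1 probe set, and the probe sets of that gene disagree, as given above. Slc7a11 was above the array medians on PSI-F day 3 alone, so its r rests on that array. Gclc ran opposite to Hmox1 (-0.669). Hmox1 and Mt1, which peaked on days 3 and 1 by their brightest probe sets, had r = 0.341.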

How the data were processed

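RNA of 10 tissue samples was hybridized to Affymetrix mouse genome arrays. The authors sacrificed 2 mice for each kind of graft and day and hybridized RNA of the best quality, and the sources used here do not say whether an array holds RNA of 1 mouse. The deposited values are log2 expression levels that the authors made with RMA (R 2.15.0 and affy 1.36.0 per the submitters' processing notes). RMA quantile-normalizes the arrays, so differences are relative to all probe sets.

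Of 45101 probe sets, 64 controls were left out and 34945 of the rest carry 1 gene symbol. Each of 18193 genes was read by its brightest such probe set. limma 3.58.1 in R 4.3.3 tested 45037 probe sets in 4 comparisons, with Benjamini-Hochberg adjustment and a call under 0.05. Days and conditions served as replicates, so the p-values measure the spread between them. Outside the fits with the day as a block, arrays of the same day counted as independent. Single arrays were compared at 4-fold, the threshold of the study, and at 2-fold. The limma procedure was tested on simulated data. Other steps used pandas 2.3.3, numpy 2.4.6, matplotlib 3.10.9 and Python 3.11.15.

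The members, pathway lists and marker lists were chosen with earlier results of these data known. All 10 members were named, and of the other pathway genes, per limma comparison and direction, up to 4 called with the largest difference (if none was called, the 2 largest), and those past 4-fold within a day. Cp, as the remaining call, and Nfe2l2, Keap1 and Bach1, as the best known regulators, were added after their values were seen. So were Maff, Chac1 and Gpx7, for their large differences. Marker lists whose range is not given elsewhere ranged as follows in summed level: fibroblast and matrix 12.45 to 14.77, epidermis 13.22 to 14.23, adipocyte 10.11 to 11.17 and endothelium 7.67 to 9.01. Alternatives covered the probe sets, a filter on dim ones, cyclic loess, the variance prior, blocks and each array left out.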

Additional observations from a re-analysis of the deposited data

How the results depend on the processing

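The count of the 10 genes called in grafts minus biopsies went from 1 to 0 with a gene's probe sets averaged (Gclc -1.27, adjusted p = 0.106), with cyclic loess (-1.13, adjusted p = 0.0596) and with the late grafts alone, and ranged from 0 to 1 as each array was left out. It stayed at 1 with 1 probe set per gene, the filter on dim probe sets, an intensity trend and the early grafts alone. The count in late minus early grafts was 2 under all 6 settings that kept the 8 arrays and ranged from 0 to 2 as each array was left out. None of the 10 was called between PSI-F and PSI or in the change with time under any setting. No difference of a called gene changed sign. Over all genes, 519 were called in grafts minus biopsies, with 9 without Diabetic, 1991 without Control and 84 with the late grafts alone. In late minus early grafts 157 were called, with 14 without PSI day 1, 256 without PSI day 3, 89 with 1 probe set per gene and 68 with the kind of graft as a block.

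At 2-fold in place of 4-fold, 1 gene passed between PSI-F and PSI on day 3 and 2 on day 7, and against Diabetic 2, 4, 2, 4, 4, 5, 1 and 3 passed in PSI day 1, PSI-F day 1, PSI day 3, PSI-F day 3, PSI day 7, PSI-F day 7, PSI day 10 and PSI-F day 10. With Control as the baseline 2 passed 4-fold in PSI day 1, 2 in PSI-F day 1, 2 in PSI day 3, 4 in PSI-F day 3 and 0 in PSI-F day 7. With probe sets averaged 1 passed in PSI-F day 3, and with cyclic loess 1 in PSI-F day 7. The shares of all genes past 2-fold against Diabetic and past 4-fold against Control were not computed. The counts at these settings therefore cannot be set against the array as a whole. The cause was not tested for any of these changes in count. PSI-F and PSI arrays were paired by day in the fit of PSI-F minus PSI, and without this block 0 of the 10 genes were called and 449 of all genes had an unadjusted p under 0.05, against 1142 with it. Slc7a11, with a mean level of 2.45, is left out by the filter on dim probe sets and cannot be read below the array medians. With 1 array per condition, the number of arrays limits the precision, and no difference within a day has an error.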
